A study of Mus musculus with 6 samples.

Results

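Oxidative phosphorylation genes were taken as the genes whose symbols follow the names of nuclear-encoded subunits of the respiratory chain and of ATP synthase. The patterns were Nduf followed by a, b, c, s or v for complex I, Sdha to Sdhd for complex II, Uqcr for complex III, Cox4 to Cox8 for complex IV, and Atp5 for complex V. They matched 89 of the 19938 genes with a value, on 114 of 28944 probe sets. The 89 genes comprised 34 of complex I, 4 of complex II, 8 of complex III, 19 of complex IV and 17 of complex V, together with 7 assembly factors of complex I (Ndufaf1 to Ndufaf7) whose symbols the pattern also matches. Ndufa4 was placed with complex IV, of which its protein is a subunit. Cox7a2l and Ndufa4l2, which are relatives of subunits, were counted with complex IV by name, so that 80 of the 89 genes encode subunits. Probe sets for Cox7c, Ndufb4 and Ndufs5 that also name a second gene were not used.

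SS-TAMs, the tumor-associated macrophages of starry-sky lymphoma, came from female Balb/c SCID mice of 6 to 12 weeks that carried subcutaneous xenografts of BL2, a line of human Burkitt's lymphoma, grown to 1.44 cm2. GCMs, the tingible-body macrophages of germinal centers, came from female Balb/c mice of 6 to 12 weeks with a CSF1R EGFP transgene, given 2 doses of sheep red blood cells. From each of 3 animals a group, 1000 cells were cut from frozen sections by laser, and their amplified RNA was hybridized to 1 array, which gave 6 arrays. SCID mice lack mature T and B cells, CD68 staining guided the capture of SS-TAMs and the tissue label of the GCM samples is spleen, but the source label gives lymph nodes. Host strain, tissue, transgene and the way cells were chosen therefore differed together between the groups and cannot be told apart. The comparison asked which transcripts separate macrophages of the lymphoma from their counterparts in normal germinal centers.

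Oxidative phosphorylation takes place in the inner mitochondrial membrane. Complexes I and II pass electrons from NADH and succinate to coenzyme Q, complex III passes them on to cytochrome c, and complex IV hands them to oxygen. Complexes I, III and IV pump protons across the membrane, and the ATP synthase lets them return while it makes ATP. Complex II is also an enzyme of the citric acid cycle, and it alone has no subunit encoded in mitochondrial DNA. Macrophages are known to shift between glycolysis and mitochondrial respiration as they are activated.

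Transcripts of most complexes were lower in SS-TAMs than in GCMs. Of the 89 genes, 41 were lower (46.1%) and 1 was higher by limma on log2 intensities (Benjamini-Hochberg adjusted p under 0.05 over all genes), whereas 47 did not pass. Over all 19938 genes, 4.76% were lower and 5.16% were higher (950 and 1028 genes). The median log2 fold change, SS-TAM minus GCM, was -0.75 for the 89 genes and 0.04 for all genes. At least 2-fold and lower were 29 of the 89 genes, against 2.38% of all genes. All 3 SS-TAM arrays lay below all 3 GCM arrays for 56 of the 89 genes, against 11.6% of all genes, and above them for 3 genes, against 18.5% of all genes. By unadjusted p under 0.05, 55 were lower and 2 were higher, against 2084 and 3036 of all 19938 genes. Among genes with a mean intensity of at least 20, 48 of 60 were lower and none was higher by unadjusted p. Over all 2352 genes of that level the counts were 883 and 469.

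These counts depended on the GCM arrays. Without GCM replicate 1, 2 or 3, the number of lower genes among the 89 fell to 24, 20 or 23, and over all genes to 507, 404 or 439, while the median of the 89 genes stayed between -0.77 and -0.68. After quantile normalization 25 genes were lower and 3 were higher, with a median of -0.36. The precision was limited by the number of arrays, since an exact permutation test of 3 against 3 arrays cannot give a p below 0.1.

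Some markers of other cells moved with the groups. Summed intensity of 21 T cell markers ranged from 264 to 315 in SS-TAMs and from 1329 to 1755 in GCMs, and 10 of the 21 were lower, with Cd3g at 6.2 to 6.5 against 276.2 to 411.1. For 19 B cell markers the sums were 201 to 252 in SS-TAMs and 769, 273 and 284 in GCM replicates 1, 2 and 3. GCM replicate 1 thus stood apart, and replicates 2 and 3 lay closer to the SS-TAM arrays. Of the 19, 2 were lower, Cd79a and Ms4a1. Core macrophage markers went the other way, with 14 of 22 higher in SS-TAMs and sums of 2947 to 3833 against 1274 to 1469. In GCMs the macrophage receptor genes Adgre1 and Msr1 read 4.9 to 5.1 and 5.1 to 8.8, near the array medians of 6.1 to 6.5. Other core macrophage markers read well above these medians in GCMs, among them Lyz2 (339.6 to 462.7), Aif1 (166.5 to 170.7), Tyrobp (157.4 to 161.8) and Ctss (152.7 to 173.2). The median of the 22 markers was 12.6 to 17.7 in GCMs and 69.7 to 95.8 in SS-TAMs. Of 10 markers of follicular dendritic cells and stroma, 3 were lower in SS-TAMs, Clu (7.5 to 8.4 against 73.3 to 148), Ccl19 (9.5 to 12.9 against 57.6 to 115.4) and Mfge8 (8.1 to 10.1 against 32.6 to 45.6). Vcam1 of that list was higher, and the summed intensity of the 10 overlapped at 462 to 624 and 353 to 611. Among 5 erythroid markers 1, Tfrc, was higher. Of 17 fibroblast and endothelial markers, 4 were higher in SS-TAMs and none was lower, and 6 had a log2 fold change below 0. Their sums were 853.5 to 1603.6 in SS-TAMs and 462.4 to 588.2 in GCMs. Sparc (439.9 to 831 against 74.7 to 142.7) and Postn (90.6 to 210.1 against 10.7 to 44.3) were among the higher genes. Of 24 cell cycle genes, 1 was higher and none was lower (3 lower by unadjusted p under 0.05). The part of these cells in the values of the oxidative phosphorylation genes was not tested. In captured tissue, fewer cells of a type and less RNA per cell cannot be told apart.

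**Figure D1:**
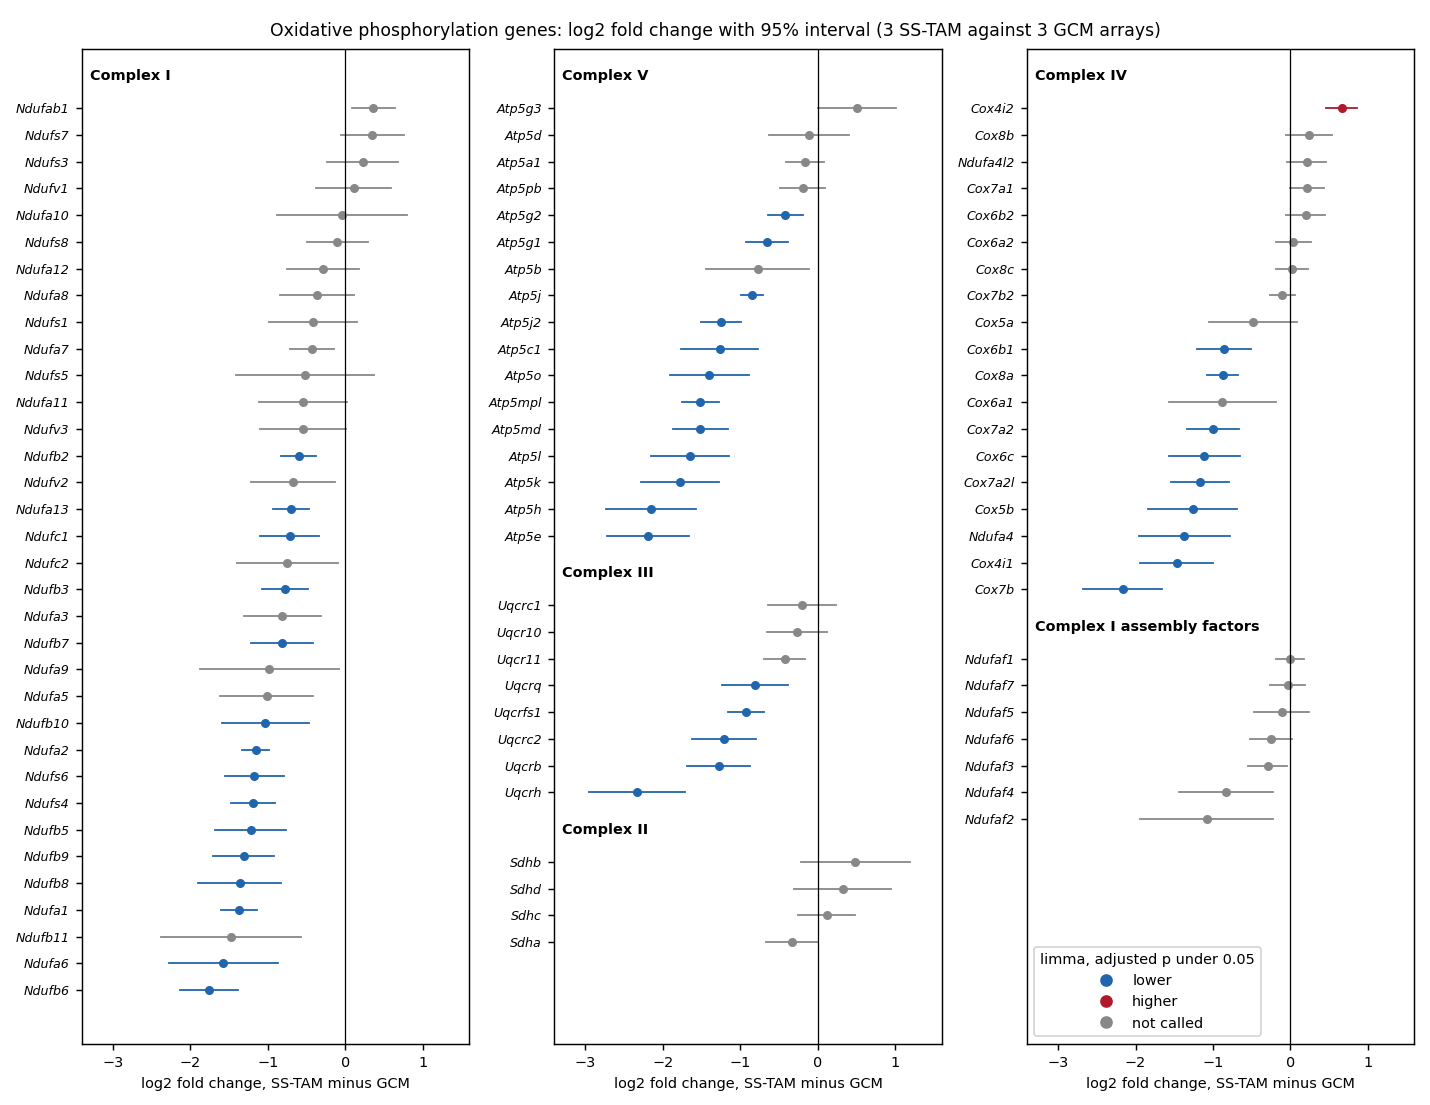
SS-TAM minus GCM log2 fold change (horizontal axis) of each of the 89 genes by complex, with the 95% interval of limma as a line. Blue, red and grey mark lower, higher and not called. Complexes I, III, IV and V held 41 blue genes, complex II and the assembly factors held none, and Cox4i2 was the only red gene.

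Promoters of these genes are shown because nuclear genes of the respiratory chain are known targets of the factors NRF1, GABPA (of the ETS family) and YY1. Whether these factors had a part in the differences was not tested. RefSeq windows of GRCm38.p6, from 250 bases before to 50 after the annotated start, were found for 73 of the 89 genes (78 windows). Searched on both strands, the NRF1 letters GCGCATGC stood in 15.4% of these windows and in 2.71% of all 32851 windows, the ETS letters CCGGAAG in 23.1% and 8.86%, and the YY1 letters AAGATGGCG in 8.97% and 1.4%. Among windows of all genes with a mean intensity of at least 20, the shares were 5.98%, 18.7% and 3.61%. Any of the 3 motifs stood in 31 of the 78 windows (39.7%), and matches of different motifs did not overlap in any of them. A match describes these letters and not a bound site. The 120 bases before the start are given, 5′ to 3′ on the strand of the gene, for 4 genes that were lower and 2 genes of complex II that were not called, with motif matches in capitals.
Uqcrh, chr4:116075071-116075190, minus strand: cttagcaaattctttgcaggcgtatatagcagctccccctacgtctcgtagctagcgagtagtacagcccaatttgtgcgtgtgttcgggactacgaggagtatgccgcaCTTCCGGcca
Atp5e, chr2:174464102-174464221, minus strand: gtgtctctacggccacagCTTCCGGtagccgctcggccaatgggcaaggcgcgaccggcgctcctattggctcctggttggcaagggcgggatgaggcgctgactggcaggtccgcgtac
Atp5h, chr11:115419920-115420039, minus strand: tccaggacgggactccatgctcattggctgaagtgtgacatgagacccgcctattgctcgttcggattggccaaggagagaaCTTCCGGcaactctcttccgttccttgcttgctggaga
Atp5j, chr16:84834977-84835096, minus strand: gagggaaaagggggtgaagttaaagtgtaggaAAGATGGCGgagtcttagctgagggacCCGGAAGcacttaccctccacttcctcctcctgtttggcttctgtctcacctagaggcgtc
Sdhb, chr4:140961151-140961270, plus strand: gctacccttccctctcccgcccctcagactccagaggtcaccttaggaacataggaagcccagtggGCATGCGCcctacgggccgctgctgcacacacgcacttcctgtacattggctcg
Sdhd, chr9:50603850-50603969, minus strand: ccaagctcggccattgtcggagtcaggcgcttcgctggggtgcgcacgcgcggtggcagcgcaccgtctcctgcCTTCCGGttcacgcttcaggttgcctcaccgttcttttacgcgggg
In capitals are the ETS match of Uqcrh, Atp5e, Atp5h and Sdhd, written as its reverse complement, the YY1 and ETS matches of Atp5j, and the NRF1 match of Sdhb as its reverse complement. An ETS match of Sdhb lay outside the stretch shown, and a second annotated start of Atp5j had no match in its window. All genes shown hold a match, unlike most of the 78 windows, and the window of Sdha, also of complex II, had none. Lower genes and uncalled genes both carried matches, with ETS letters in 31.4% of 35 windows and 16.3% of 43 windows, YY1 letters in 14.3% and 4.65%, and NRF1 letters in 11.4% and 18.6%. These shares come from 2 to 11 windows each and were not tested. Of the factors themselves, Yy1 was higher in SS-TAMs, at 59.9, 71.6 and 63.4 against 37.9, 33.6 and 36.5 (log2 fold change 0.85, adjusted p = 0.00487 by limma), Gabpa read 20.5 to 38 against 37.8 to 42.2 (adjusted p = 0.19) and Nrf1 read 7.6 to 9.4 against 7.8 to 8.3 (adjusted p = 0.70), both not called.

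Complex I, the NADH dehydrogenase, held 15 lower genes and none higher among 34, with a median log2 fold change of -0.73 (22 lower and 1 higher by unadjusted p under 0.05). Without GCM replicate 1, 2 or 3 the count of lower genes was 7, 6 or 8, and the median stayed between -0.78 and -0.67. The median of the mean intensities of the 34 genes was 39.9, and of all genes with a mean intensity between 20 and 100, 19.9% were lower. All 15 lower genes belonged to the 28 accessory subunits, whose median log2 fold change was -0.81. Accessory subunits surround the catalytic core and serve its assembly and stability. The 6 measured genes of the core, which carry the flavin and the iron-sulfur clusters, had no call and a median of 0.00. No test compared the core with the accessory subunits, and the mean intensities of the core genes had a median of 16.9, against 42.9 for the accessory genes.

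Values given in sets of 3 are the intensities of replicates 1, 2 and 3 of a group. Ndufb6, of the membrane arm, read 43.3, 47.7 and 50.3 on the SS-TAM arrays and 132.7, 196.3 and 153.3 on the GCM arrays. Its highest SS-TAM array was well below its lowest GCM array, with means of 47.1 ± 3.54 and 161 ± 32.5 (SD, n = 3). The gene was 3.37-fold lower in SS-TAMs (log2 fold change -1.75, SE 0.15, adjusted p = 0.00278). Ndufa6, which joins the peripheral and membrane arms, stood at 23, 11.3 and 11.9 against 39.4, 48.4 and 42.6. Those groups did not overlap either, although SS-TAM replicate 1 stood apart from replicates 2 and 3, and the fall was 2.97-fold (adjusted p = 0.0258). Ndufa6 was not called without GCM replicate 1, 2 or 3, or without SS-TAM replicate 2 or 3. For Ndufa1, a small membrane subunit needed for assembly, the SS-TAM values were 101.9, 82 and 97.2 and the GCM values 240.1, 251 and 233.9. The replicates lay close together in both groups, and the gene was 2.59-fold lower (adjusted p = 0.00149).

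Ndufs4, whose loss impairs assembly of the NADH-binding module, was at 25.9, 32.9 and 28.8 in SS-TAMs and at 66.7, 73 and 60.4 in GCMs. It was 2.29-fold lower with no overlap (adjusted p = 0.00378). The other called genes of complex I were Ndufb8, Ndufb9, Ndufb5, Ndufs6, Ndufa2, Ndufb10, Ndufb7, Ndufb3, Ndufc1, Ndufa13 and Ndufb2, at log2 fold changes from -1.36 to -0.60. Ndufa13, Ndufb2 and Ndufb10 did so from GCM values of only 11.3 to 21.7. Ndufc1 lost its call without any 1 of the 6 arrays. Ndufb10 did so without any 1 other than SS-TAM replicate 3, and Ndufb7 without any 1 other than GCM replicate 1. Ndufb11 had a log2 fold change of -1.47 and arrays that did not overlap, yet its SS-TAM values of 49, 50.6 and 21.8 were spread too far for a call (adjusted p = 0.0633). The other probe set of Ndufb11 gave a smaller log2 difference of -0.63. Ndufc2, a membrane-arm subunit, was at 114.5, 144.3 and 199.7 against 217.9, 335.3 and 213, also uncalled (adjusted p = 0.149), and its log2 fold change of -0.75 became 0.19 after quantile normalization.

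Among the core genes, Ndufs1, the large iron-sulfur subunit, was at 14.6, 8.8 and 16.3 in SS-TAMs and 16.7, 17.7 and 16.7 in GCMs. Ndufv2, of the NADH-binding module, was at 28.9, 28.7 and 48.1 against 50.1, 61.5 and 53.1. Neither pair of groups overlapped and neither gene was called (log2 fold changes -0.41 and -0.68, adjusted p = 0.313 and 0.123). Ndufs3, at 58.6, 39.4 and 39.4 against 33.6, 43.1 and 39.4, Ndufs7, Ndufs8 and Ndufv1 had overlapping arrays and log2 fold changes of 0.22, 0.35, -0.10 and 0.11. Their 95% intervals reached from -0.50 at the lowest to 0.76 at the highest, so a fall of 2-fold lay outside the interval of each of these 4 genes on the deposited scale. Ndufab1, the mitochondrial acyl carrier protein, was the only gene of complex I whose SS-TAM arrays all lay above the GCM arrays (17.1, 21.3 and 18.2 against 15.4, 13.1 and 15.4) and was not called (adjusted p = 0.106).

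Complex II, succinate dehydrogenase, had no called gene among its 4 subunits (1 lower by unadjusted p under 0.05), and the median log2 fold change was 0.22. The median of their mean intensities was 25.7, and of all genes between 20 and 100, 19.9% were lower. Sdha, the flavoprotein that oxidizes succinate, read 31.6, 24.5 and 33.7 in SS-TAMs and 38.8, 34.3 and 39.2 in GCMs. Sdhb, the iron-sulfur subunit, read 25.5, 16.3 and 17.1 against 16.6, 9.4 and 16.6. The Sdha arrays were all below and the Sdhb arrays overlapped, with log2 fold changes of -0.33 (95% interval -0.66 to -0.00) and 0.49 (-0.21 to 1.19). Of the membrane anchors, Sdhc stood at 54.8, 42.9 and 49.9 against 44.1, 38.8 and 54.1. Sdhd stood at 15.5, 29.1 and 15.5 against 14.9, 15.5 and 15.5, the same deposited value on 4 of 6 arrays. Both overlapped between the groups (log2 fold changes 0.11 and 0.32, intervals -0.25 to 0.48 and -0.30 to 0.95). None of the 4 intervals reached a fall of 2-fold. A scaling by core macrophage markers turned Sdhb, Sdhc and Sdhd to -0.94, -1.32 and -1.11, while it moved the median of all genes to -1.39.

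Complex III, cytochrome c reductase, had 5 of 8 genes lower and none higher, with a median of -0.87 and all 8 below 0 (6 lower by unadjusted p under 0.05). The count of lower genes was 3 without GCM replicate 2 and also 3 without GCM replicate 3. The median of the mean intensities of the 8 genes was 33.6. Of all 1957 genes between 20 and 100, 19.9% were lower and 1172 had a log2 fold change below 0. Uqcrh, the hinge protein that helps cytochrome c meet the complex, had the most negative log2 fold change of the 89 genes on the deposited scale, whereas after quantile normalization it stood at -1.33 and Cox7b, Atp5e, Atp5h and Ndufa6 were more negative. Its values were 104.7, 72.7 and 137.9 on the SS-TAM arrays and 436.6, 513.1 and 607 on the GCM arrays. The lowest GCM array was far above the highest SS-TAM array, with means of 105 ± 32.6 and 519 ± 85.3 (SD, n = 3), and the gene was 5.06-fold lower (log2 fold change -2.34, SE 0.25, adjusted p = 0.00548). Its promoter holds the ETS letters shown above, 10 bases before the start.

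Uqcrb, which shapes the quinone-binding part, read 53.6, 44.2 and 61.6 against 153.3, 121 and 113.1. Uqcrc2, a core protein on the matrix side, read 22.1, 15.3 and 23.3 against 44.7, 44.9 and 48.7. Both were lower with no overlap, by 2.43-fold and 2.31-fold (adjusted p = 0.00914 and 0.0112). Uqcrfs1, the Rieske iron-sulfur protein that moves electrons from quinol to cytochrome c1, was at 24.9, 24.4 and 21 in SS-TAMs and 40.9, 45.9 and 46.6 in GCMs. It was 1.90-fold lower (adjusted p = 0.00424), and Uqcrq was 1.76-fold lower (adjusted p = 0.0401). Uqcrq lost its call without any 1 of the arrays other than SS-TAM replicate 2, and Uqcrc2 without GCM replicate 2 or 3. Uqcrc1, the partner of Uqcrc2, had overlapping values of 21.2, 16.5 and 13.3 against 18.7, 17.9 and 21.5 and was not called (log2 fold change -0.21, 95% interval -0.65 to 0.23). Uqcr10 and Uqcr11 were not called at -0.27 and -0.43.

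Complex IV, cytochrome c oxidase, had 9 of 19 genes lower and 1 higher (10 and 1 by unadjusted p under 0.05). The 10 subunit genes used in most tissues had a median of -1.06, and 8 of them were lower, with all SS-TAM arrays below all GCM arrays for all 10. The median of their mean intensities was 196.4. Among all genes of at least 100, 46.3% were lower, and the SS-TAM arrays all lay below for 222 of 395. Quantile normalization left 2 of the 19 genes lower and moved the median of complex IV from -0.86 to -0.03, so the size of the fall depended on the scaling. That median includes 7 forms of particular tissues, whose values lay near the array medians. Of the 10 genes used in most tissues, Cox7b, Cox7a2, Cox4i1, Ndufa4, Cox5b and Cox8a then stood at -1.58, -0.89, -0.62, -0.47, -0.36 and -0.26. Cox5a, Cox6c, Cox6a1 and Cox6b1 stood at 0.005, 0.17, 0.19 and 0.20. Without GCM replicate 2 the count of lower genes among the 19 was also 2. It was 5 without GCM replicate 1, 4 without GCM replicate 3 and 5 without SS-TAM replicate 1.

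Cox7b, a small membrane subunit, was at 39.8, 50.6 and 60.9 in SS-TAMs and 190.8, 283.1 and 206 in GCMs. The means were 50.4 ± 10.6 and 227 ± 49.5 (SD, n = 3). With no overlap Cox7b was 4.49-fold lower (log2 fold change -2.17, SE 0.21, adjusted p = 0.00391), and it remained lower after quantile normalization at -1.58. Cox4i1, the common form of the regulatory subunit 4 that binds ATP, was at 84.1, 105.3 and 117.4 against 220.2, 313.6 and 320.7. It was 2.77-fold lower (adjusted p = 0.00943), with an adjusted p of 0.0526 without GCM replicate 2 and 0.12 after quantile normalization. Ndufa4, long assigned to complex I, was at 128.3, 74.4 and 139.7 against 272.1, 292.2 and 289.2, a fall of 2.58-fold (adjusted p = 0.0236). Cox5b, which coordinates zinc, fell by 1.26 on the log2 scale (adjusted p = 0.0278), and its neighbour Cox5a, which did not pass, read 49.3, 76 and 93.3 against 105.2, 93.7 and 97.8 (adjusted p = 0.249).

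Cox6c had values of 201, 215.5 and 287.7 in SS-TAMs and 410.9, 513.3 and 595.1 in GCMs. It was 2.16-fold lower on the deposited scale (adjusted p = 0.0211) but stood at a log2 fold change of 0.17 after quantile normalization. Cox6b1, which faces the intermembrane space, was 1.81-fold lower (adjusted p = 0.0201) and turned to 0.20 in the same way. Cox6a1, at 127.2, 202.1 and 271.2 against 392, 304.9 and 361.9, was not called (log2 fold change -0.88, adjusted p = 0.118) and turned to 0.19. Cox8a and Cox7a2 were 1.83-fold and 2.00-fold lower (adjusted p = 0.00349 and 0.0108). Cox7a2 lost its call without any 1 of the GCM arrays. Cox7a2l, which takes part in joining complexes III and IV into supercomplexes and is no subunit of complex IV, fell by 1.17 on the log2 scale (adjusted p = 0.00937).

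The 7 forms of complex IV subunits that belong to particular tissues held the only higher gene of all 89. Cox4i2, the form of subunit 4 known from lung and from oxygen-sensing cells, read 9.5, 8.9 and 8.3 on the SS-TAM arrays and 5.8, 5.2 and 5.9 on the GCM arrays. The groups did not overlap and the difference was 1.58-fold (log2 fold change 0.66, adjusted p = 0.00793), at values near the array medians of 6.1 to 6.5, where the deposited values do not say whether a transcript was detected. Cox6a2, Cox6b2, Cox7a1, Cox7b2, Cox8b and Cox8c read 4.3 to 9.1 on all arrays and were not called, nor was Ndufa4l2, a hypoxia-responsive relative of Ndufa4, at 4.3 to 5.9.

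**Figure D2:**
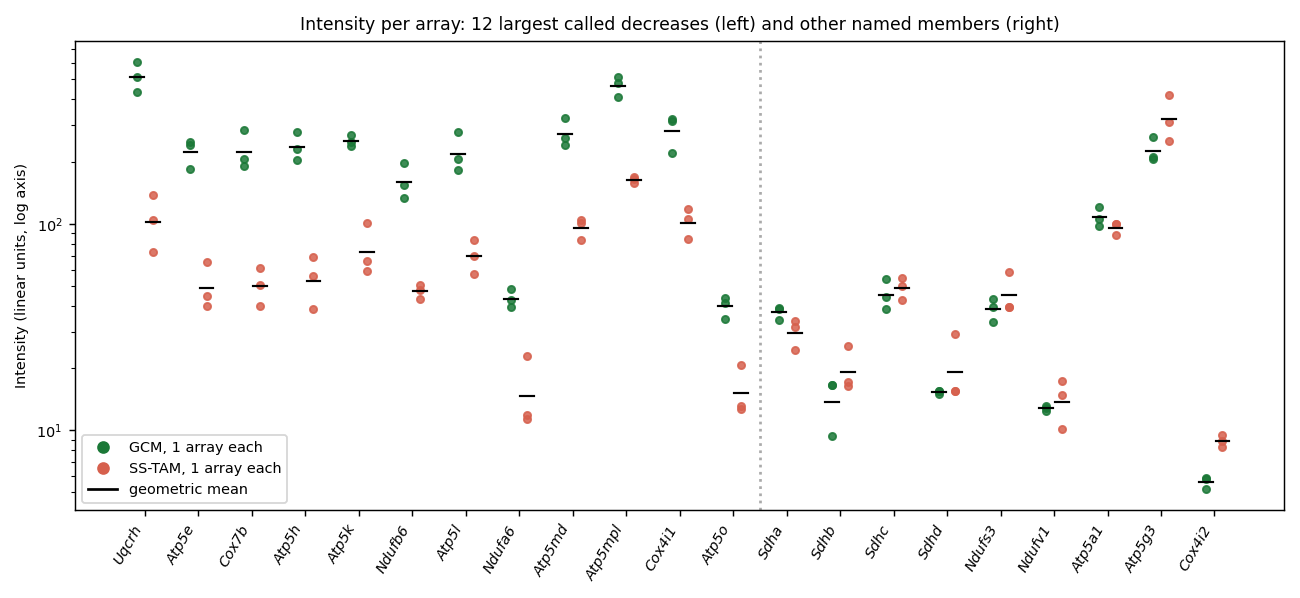
Intensity on each array (vertical log axis, linear units) for the 12 genes with the most negative called log2 fold changes (left of the dotted line) and for 9 other genes (right), with GCM arrays in green, SS-TAM arrays in red and bars at geometric means. The groups are apart for all 12 genes on the left, they overlap for Sdhb, Sdhc, Sdhd, Ndufs3, Ndufv1, Atp5a1 and Atp5g3, and the SS-TAM arrays lie below for Sdha and above for Cox4i2.

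Complex V, ATP synthase, had 12 of 17 genes lower (70.6%) and none higher, with a median of -1.25 (13 lower by unadjusted p under 0.05). Among all genes with a mean intensity of at least 100, 46.3% were lower, and the median over the 17 genes of their mean intensity was 145.9. Of the 12 genes of the stalks and the membrane part, 10 were lower (median -1.32), and of the 5 genes of the catalytic F1 head and its shaft, 2 were lower (median -0.77). No test compared these 2 sets. Without GCM replicate 1 or 3 the count for complex V was 8, and after quantile normalization it was 6 lower and 2 higher with a median of -0.38.

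Atp5e, the epsilon subunit at the foot of the shaft, was at 65.3, 39.8 and 44.8 in SS-TAMs and 183.5, 250.1 and 242 in GCMs. Its means were 50 ± 13.5 and 225 ± 36.3 (SD, n = 3). It was 4.57-fold lower (log2 fold change -2.19, SE 0.22, adjusted p = 0.00415). Atp5h, subunit d of the side stalk, was at 69.4, 38.5 and 55.6 against 230.5, 278.2 and 203.2. It was 4.44-fold lower (adjusted p = 0.00576), its other 2 probe sets gave log2 differences of -2.05 and -1.97, and neither gene overlapped between the groups. Both promoters hold the ETS letters, as shown above.

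Atp5k and Atp5l, subunits e and g that help pair the synthase into dimers, had values of 58.8, 65.8 and 101 against 268.9, 238.4 and 249.3, and of 57.4, 69.9 and 83.8 against 205.4, 278.1 and 182.5. Both were apart on all arrays and were 3.45-fold and 3.14-fold lower (adjusted p = 0.00672 and 0.00811). The small membrane subunits Atp5md and Atp5mpl followed, Atp5md at 103.8, 83.1 and 100.8 against 241.6, 326 and 258.9, and Atp5mpl at 156.8, 168.5 and 163.9 against 409.1, 514.6 and 480.4. Both were 2.86-fold lower (adjusted p = 0.00364 and 0.00131), although Atp5mpl had an adjusted p of 0.0822 after quantile normalization. Atp5o, which ties the side stalk to the F1 head, was at 12.7, 13.1 and 20.6 against 41.5, 34.7 and 43.8, a fall of 2.64-fold (adjusted p = 0.0145) that lost its call without any 1 of the GCM arrays and without SS-TAM replicate 2.

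Atp5j2 and Atp5j, subunits f and F6, were 2.37-fold and 1.80-fold lower (adjusted p = 0.00242 and 0.00149). After quantile normalization neither was called, with log2 fold changes of -0.14 and -0.41 (adjusted p = 0.355 and 0.0721). Atp5j had the narrowest interval of the called genes of complex V, -0.99 to -0.71, with values of 53, 56.5 and 51.6 against 94.4, 99 and 97, and its promoter is the one that holds both YY1 and ETS letters. Atp5c1, the gamma subunit that turns inside the F1 head, was at 131.1, 85.4 and 136.4 against 256.3, 317.8 and 261.6, a fall of 2.41-fold (adjusted p = 0.0175). It lost its call without any 1 of the GCM arrays. The catalytic beta subunit Atp5b, at 166.9, 78.2 and 113.7 against 198.4, 177.8 and 210.3, was not called (log2 fold change -0.77, adjusted p = 0.145) and turned to 0.09 after quantile normalization. The alpha subunit Atp5a1 was at 99.3, 88.3 and 99.3 against 104.9, 97.6 and 120.7, overlapping and uncalled (log2 fold change -0.17, 95% interval -0.41 to 0.07).

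The c subunits, which form the rotor ring, come from 3 genes that encode the same mature protein, and their values differed in direction. Atp5g1 read 26.7, 30.5 and 33.9 in SS-TAMs and 47.7, 51.7 and 43.8 in GCMs, 1.58-fold lower (adjusted p = 0.0207). Its call was lost without SS-TAM replicate 2 or any 1 of the GCM arrays. Atp5g2 was 1.34-fold lower (adjusted p = 0.0478) but lost its call without any 1 of the arrays other than GCM replicate 2, and after quantile normalization its log2 fold change was 0.04. Atp5g3 read 250.5, 311.1 and 420.3 against 263.2, 205.4 and 211.7, overlapping and not called (log2 fold change 0.51, 95% interval -0.00 to 1.01, adjusted p = 0.195). After quantile normalization Atp5g3 was higher at 1.54 (adjusted p = 0.00144), as was Atp5a1 at 0.46 (adjusted p = 0.0433).

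None of the 7 assembly factors of complex I was called (3 lower by unadjusted p under 0.05), and their median was -0.25 with all 7 below 0. The median of their mean intensities was 10.5. Of all 17586 genes under 20, 2.15% were lower and 6534 had a log2 fold change below 0. Ndufaf2 and Ndufaf4 had the most negative values, -1.08 and -0.83 (adjusted p = 0.122 and 0.0989), with arrays that did not overlap. Ndufaf4 was at 7.4, 13.6 and 13.6 against 19.5, 19.5 and 20.2, and Ndufaf3 at 16.6, 21 and 16.8 against 22.2, 21.8 and 22.3. The intensities of Ndufaf1, Ndufaf5, Ndufaf6 and Ndufaf7 were 4.7 to 12.1 on all arrays.

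Calls were more frequent among brighter genes. Among 26 of the 89 genes with a mean intensity of at least 100 over the 6 arrays, 20 were lower (76.9%) and none was higher, against 46.3% and 14.4% of all 395 genes at that level. Between 20 and 100 the counts were 17 of 34 lower (50%) and none higher, against 19.9% and 11.3% of 1957 genes. Under 20 they were 4 of 29 lower (13.8%) and 1 higher (3.45%), against 2.15% and 4.26% of 17586 genes. Taken over all genes of at least 20, 37 of 60 were lower (61.7%) and none was higher, against 24.3% and 11.8% of 2352 genes, and the median log2 fold change was -0.99 against -0.19. Without GCM replicate 1, 2 or 3 the lower genes were 24, 19 or 21 of the 60 (40%, 31.7% or 35%), against 14.9%, 12.2% or 12.9% of the 2352. All SS-TAM arrays lay below all GCM arrays for 48 of these 60 genes, against 37.4% of the 2352, and above them for none, against 19.7%. Across the 89 genes, log2 mean intensity and log2 fold change had a Pearson r of -0.64 and a Spearman rho of -0.64. Over intensities of at least 20, r was -0.39 across the 60 genes and -0.18 across the 2352. These are descriptions across genes, which share the same 6 arrays and are not independent replicates. SS-TAM arrays had a 99th percentile of intensity of 241 to 284 and GCM arrays one of 614 to 664, whereas the medians were 6.1 to 6.5 on all arrays.

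**Figure D3:**
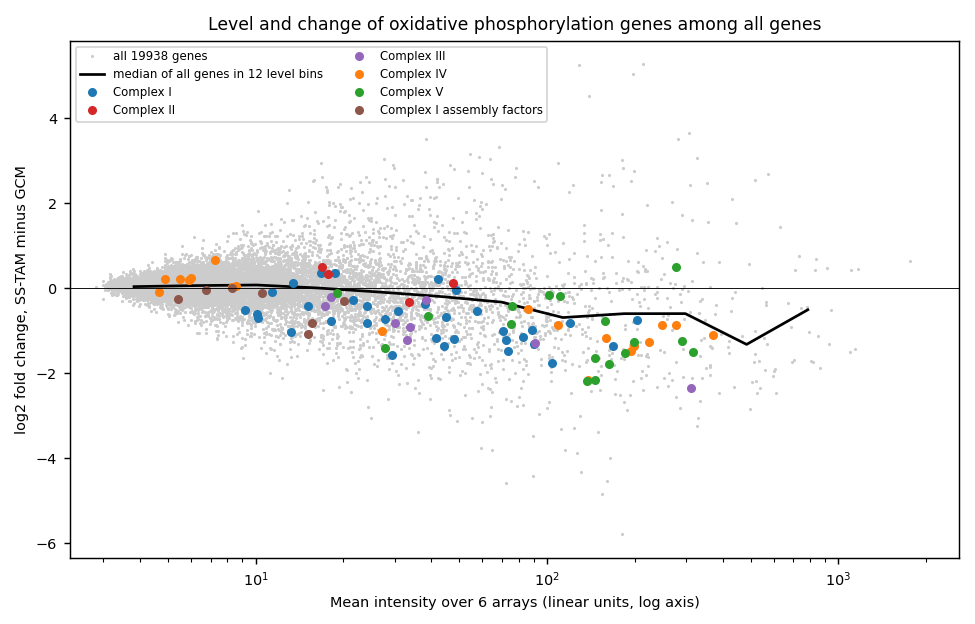
SS-TAM minus GCM log2 fold change (vertical axis) against mean intensity over the 6 arrays (horizontal log axis) for all 19938 genes in grey, their median in 12 level bins as a black line, and the 89 genes coloured by complex. Most of the coloured points above an intensity of 20 lie below the black line, and the line itself falls below 0 at high intensities.

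**Figure D4:**
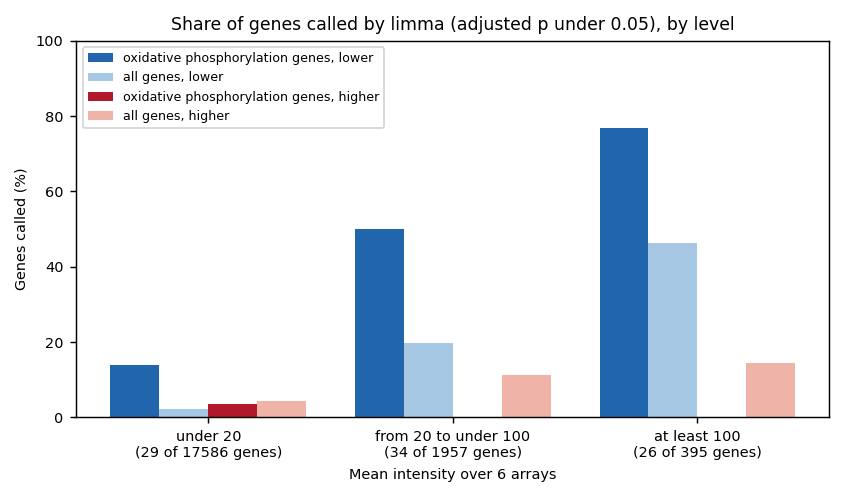
Share of genes called by limma (vertical axis, %) in 3 ranges of mean intensity over the 6 arrays, for the oxidative phosphorylation genes and for all genes. The lower share of the 89 genes is 50% against 19.9% between 20 and 100, and 76.9% against 46.3% from 100 on. Below the bars stand the number of oxidative phosphorylation genes and of all genes in each range.

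Array by array, the median intensity of the 89 genes was 26.7, 28.7 and 31.5 on the SS-TAM arrays and 44.7, 44.9 and 46.6 on the GCM arrays. Their summed intensity was 4320 to 5240 and 9316 to 9731. The medians were apart for complex I (24.9 to 29.4 against 41.4 to 44.9), complex III (22.2 to 26.2 against 42 to 43.6), complex IV (39.8 to 60.9 against 93.7 to 105.2) and complex V (69.4 to 96.6 against 198.4 to 205.4). For complex II they overlapped, at 25.4 to 28.6 against 24.9 to 27.9. SS-TAM replicate 3 was the highest of its group for 41 genes and the lowest for 12.

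Scaling changed the size of the difference, and for some genes its sign. Quantile normalization, which gives all arrays the same distribution, left 66 of the 89 genes below 0, and the 25 that were lower had all been lower on the deposited scale. The 16 lower genes that lost their call were Ndufb7 and Ndufc1 of complex I, Uqcrq of complex III, Cox4i1, Cox5b, Cox6b1, Cox6c, Cox7a2l, Cox8a and Ndufa4 of complex IV, and Atp5c1, Atp5g1, Atp5g2, Atp5j, Atp5j2 and Atp5mpl of complex V. The 3 higher genes were Atp5g3, Cox4i2 and Atp5a1. By complex it gave 13 lower genes and a median of -0.57 for complex I, none and 0.39 for complex II, and 4 and -0.71 for complex III. At a mean intensity of at least 20, 35% of the 60 genes and 15.1% of all genes were lower. Centring each array on its median gave 44 lower and 1 higher, and over all genes 1172 lower and 745 higher. Scaling to the core macrophage markers put all 89 genes lower, as it did 98.4% of all genes, with a median of -2.18 where all genes had -1.39.

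**Figure D5:**
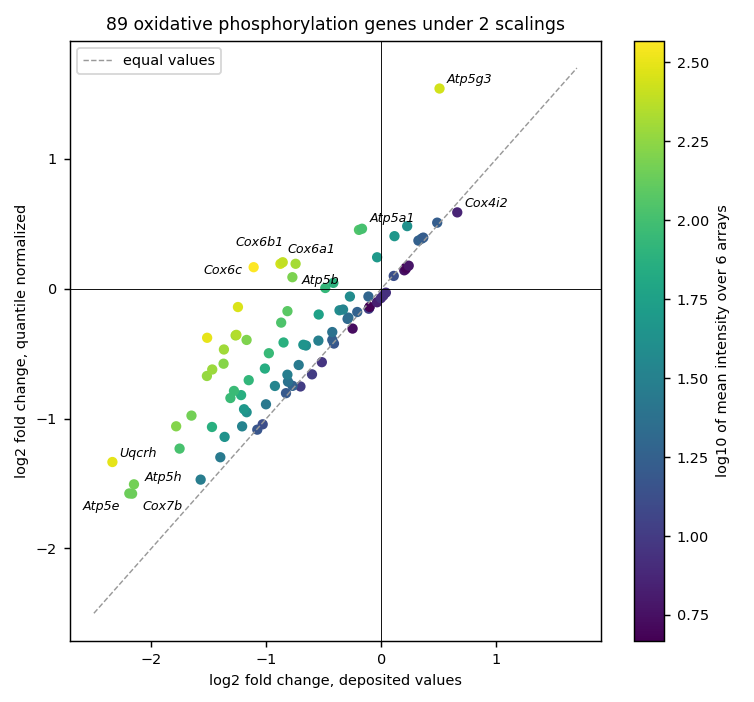
The 89 genes by their log2 fold change on the deposited scale (horizontal axis) and after quantile normalization (vertical axis), coloured by the log10 of mean intensity over 6 arrays, with the dashed line at equal values. Bright genes lie farthest above the line, Atp5g3 reaches 1.54, and Cox6c, Cox6b1, Cox6a1 and Atp5b cross from below 0 to above it.

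Of the 42 called genes, 19 were called whichever single array was left out. They were Cox4i2 and 18 lower genes, Uqcrh, Uqcrb and Uqcrfs1 of complex III, Ndufa1, Ndufa2, Ndufb6, Ndufb9 and Ndufs4 of complex I, Cox7b and Cox8a of complex IV, and Atp5e, Atp5h, Atp5j, Atp5j2, Atp5k, Atp5l, Atp5md and Atp5mpl of complex V. After quantile normalization 4 of these 19, Cox8a, Atp5j, Atp5j2 and Atp5mpl, lost their call. Leaving out GCM replicate 1, 2 or 3 lost 17, 21 or 18 of the 42 calls, and leaving out SS-TAM replicate 1, 2 or 3 lost 11, 9 or 8.

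More than 1 probe set named 17 of the 89 genes. Of their 25 other probe sets, 23 also had a log2 difference below 0, the exceptions being those of Ndufs3 and Ndufab1, which were above 0 as was the probe set used. The 5 other probe sets of Atp5l gave -1.54 to -0.52, and the other probe set of Cox7b gave -1.31 beside the -2.17 used. Atp5pb, subunit b of the side stalk, also differed between probe sets, at -0.19 (not called) for the one used and -1.32 for the other. Genes of this pathway have many processed copies in the genome, and whether such copies contributed to a probe set was not tested.

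Of the genes that work with the complexes, most were not called, at levels that differed between the lists. Among 9 electron carriers and carriers of the inner membrane, 1 was lower and none higher, with a median of -0.28 (3 lower and 1 higher by unadjusted p under 0.05). The median of their mean intensities was 100.1, and of all genes of at least 100, 46.3% were lower. The lower gene was Cycs, cytochrome c, at 52.9, 60.1 and 66.1 in SS-TAMs and 274.7, 287.7 and 152.7 in GCMs. Its groups were apart, with a log2 fold change of -1.95 (adjusted p = 0.0101). Cyc1, the cytochrome c1 of complex III, whose symbol lies outside the pattern, overlapped at 24.9 to 26.1 against 25.4 to 27.2. The adenine nucleotide carrier Slc25a5, at 151.8, 174 and 189.6 against 149.1, 132 and 146.3, was not called (log2 fold change 0.27, adjusted p = 0.169).

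Among 35 other assembly factors, 4 were lower and none higher, with a median of -0.02 (10 lower and 3 higher by unadjusted p under 0.05). They were Cox17 (-1.57) and Cox14 (-1.28), which serve complex IV, Uqcc3 (-0.95), which serves complex III, and Coa5 (-0.90). Of 16 genes of pyruvate dehydrogenase and the citric acid cycle, 1 was lower, the succinyl-CoA ligase gene Suclg1 (-0.61), and the median was -0.06. Of 12 genes of coenzyme Q synthesis, none was lower and 2 were higher, Coq10a (0.63) and Coq3 (0.45), with a median of 0.17. Over all genes the shares were 4.76% lower and 5.16% higher. The medians of mean intensity were 8.2 for the assembly factors, 16.5 for the citric acid cycle list and 8.7 for coenzyme Q synthesis. Of all genes under 20, 2.15% were lower and 4.26% higher. After quantile normalization Suclg1 was not called and 2 of the 35 assembly factors were lower. Scaling to the core macrophage markers put every gene of these lists and of the carriers lower, beside 98.4% of all genes.

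Of 14 regulators of mitochondrial biogenesis, 1 was lower and 1 higher, with a median of 0.04. The median of their mean intensities was 7.5, and of all genes under 20, 2.15% were lower and 4.26% higher. Tfam, which packages mitochondrial DNA and helps start its transcription, read 4.8, 5 and 4.6 in SS-TAMs and 7.8, 10.5 and 7 in GCMs, a fall of 0.79 on the log2 scale at values near the array medians (adjusted p = 0.0311). The coactivator gene Ppargc1a read 3.6 to 4.3 on all arrays and was not called. The 13 subunits encoded in mitochondrial DNA were looked up by symbol, and none was found among the genes with a value, so they were not analysed here.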

How the data were processed

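The authors deposited 1 table of intensities on a linear scale, from 2.4 to 2544, for 28944 probe sets of 6 Affymetrix Mouse Gene arrays. The submitters' processing notes name RMA and limma, and give no versions, settings or genome build. The values are summarized and normalized already, carry no detection calls and are rounded, and 20.2% of the 89 genes and 67% of all genes repeat a value between arrays. RMA equalizes arrays on a log scale. The upper ends of the arrays still differ, and quantile normalization was among the alternatives.

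Probe sets were named by the platform annotation (21789 name 1 gene, 1621 several, 5534 unnamed here), with symbols updated by gene ID for 21698 of them. Each gene was represented by its probe set of highest mean intensity. Log2 intensities were fitted in limma (version 3.58.1, under R 4.3.3) by lmFit and tested two-sided by eBayes with no covariate, and p-values were adjusted by Benjamini-Hochberg over 19938 genes, with a threshold of 0.05. Folds are ratios of geometric means. The steps were tested on simulated data. Per the labels the samples of a group are biological replicates, and the study counts 3 animals a group.

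The members and lists were chosen with earlier results of these data known. Named genes are the 12 most negative called log2 fold changes, called increases, the most positive values, the brightest genes of each complex, catalytic core genes, isoform sets, the 4 genes of complex II, and called genes of each list. The other genes named, the promoters shown and the range from 20 to 100 were chosen after their values were seen. Promoter windows are from RefSeq (GRCm38.p6) and probe sets have no coordinates here. Protein lengths were not analysed here. Alternatives covered scaling, dim genes, an offset, the probe set of a gene, left-out arrays, weights for arrays, the variance model, the replicate number as a block, thresholds and the choice of members.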

Additional observations from a re-analysis of the deposited data

How the results depend on the processing

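Among the 89 genes, 41 were lower and 1 was higher, with a median log2 fold change of -0.75. Quantile normalization gave 25 lower, 3 higher and -0.36, and scaling to the core macrophage markers gave 89 lower, 0 higher and -2.18, where all genes had a median of -1.39. An adjusted p under 0.01 left 21 lower. No gene was higher with genes under 10 in both groups left out (0) or with a 2-fold limit (0), and adding 16 before the log2 gave a median of -0.45. Leaving out each array in turn gave 20 to 36 lower, 1 to 2 higher and medians from -0.77 to -0.63. The other alternatives gave 29 to 47 lower genes. Deviations from the group means correlated at 0.09, 0.08 and 0.02 between arrays of the same number, and at -0.08 to 0.01 between other numbers. These values were small and do not settle whether the numbers pair the arrays. With the replicate number as a block 33 genes were lower and 1 was higher, with a median of -0.75.

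Among genes chosen by the rule for names, those called on the deposited scale whose sign turned were Cox4i2, Cox6c and Cox6b1. Scaling to the core macrophage markers turned Cox4i2 (-0.77), Atp5g3 (-0.92), Sdhb (-0.94), Sdhc (-1.32), Sdhd (-1.11), Ndufs3 (-1.21), Ndufs7 (-1.08), Ndufv1 (-1.32), Cox6a2 (-1.39), Cox6b2 (-1.23), Cox7a1 (-1.22), Cox8b (-1.19), Cox8c (-1.41) and Ndufa4l2 (-1.22). Quantile normalization turned Ndufc2 (0.19), Cox6c (0.17), Cox6a1 (0.19), Atp5b (0.089), Cox6b1 (0.20), Cox6a2 (-0.030) and Cox8c (-0.054), and of the other genes Atp5g2 (0.045), Cox5a (0.005), Ndufa10 (0.24), Atp5pb (0.45) and Atp5a1 (0.46). Centring on the median turned Cox6a2 (-0.022) and Cox8c (-0.045). Leaving out an array turned Ndufs8 (0.055 without SS-TAM replicate 1, range -0.20 to 0.055), Ndufv1 (-0.062 without SS-TAM replicate 3, range -0.062 to 0.33), Cox6a2 (-0.052, without GCM replicate 2) and Cox8c (-0.049 without SS-TAM replicate 2 and -0.031 without GCM replicate 1, with a range up to 0.066). The cause was not tested.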

Other observations

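Transcripts for other proteins of the mitochondrion were lower in part. Of 77 mitochondrial ribosomal protein genes, 16 were lower and 1, Mrps18b, was higher, with a median log2 fold change of -0.23. Mrps18c, of the small subunit, read 27.5, 43.7 and 38.3 in SS-TAMs and 202, 268.4 and 145.3 in GCMs (log2 fold change -2.47, adjusted p = 0.00575 by limma). Of 24 genes of mitochondrial protein import, 4 were lower and 1 was higher. Tomm7, of the outer membrane translocase, read 50.1, 128 and 122.4 against 358.1, 432.9 and 416.6 (-2.12, adjusted p = 0.0236), and Timm13 was the higher gene at 0.70. Of 71 cytosolic ribosomal protein genes, 49 were lower and 1 was higher, with a median of -1.56. The medians of mean intensity were 12.9 for mitochondrial ribosomal, 14.4 for import and 330 for cytosolic ribosomal genes. Of all genes under 20, 2.15% were lower, and of those of at least 100, 46.3% were lower.

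The vacuolar proton pump, which acidifies lysosomes at the cost of ATP, had no lower and 9 higher genes among 21, with a median of 0.53. Atp6v0a1 read 107.6, 81.5 and 104.2 in SS-TAMs and 13.2, 10.7 and 9.4 in GCMs (log2 fold change 3.14, adjusted p = 0.000855), and Atp6v0d2 read 205.7, 199.2 and 209 against 23.5, 45.9 and 51.6 (2.42, adjusted p = 0.00791). Both genes had no overlap between the groups. Over all genes 4.76% were lower and 5.16% higher. The median of the mean intensities of the pump genes was 34.3, and of all genes between 20 and 100, 19.9% were lower and 11.3% higher. After quantile normalization 14 mitochondrial ribosomal, 3 import and 35 cytosolic ribosomal genes were lower and 11 genes of the vacuolar pump were higher. Scaling to the core macrophage markers instead put all genes of the first 3 lists and 16 of the vacuolar pump lower, beside 98.4% of all genes.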
